A study of Arabidopsis thaliana with 10 samples.

Results

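The response of *Arabidopsis thaliana* leaves in the first 30 min after wounding was measured by setting the 2 arrays of leaves harvested 30 min after damage against the 2 arrays of untreated leaves, 4 of the 10 arrays of the series. The arrays were chosen by their labels and by no measured value. All plants were 21 days old, and each array held RNA of 1 genotype, either wild type (Col-0) or the Ri17 line, whose RNA interference construct is directed at *JAV1*. For wounding, 4 rosette leaves were crushed with forceps over the midrib, which damaged about 30% of each leaf. Untreated plants were not damaged, and their arrays are the only ones to serve as the start of both the wounding and the hormone series. The labels give leaves as the tissue of all arrays and MS medium as the growth medium. The deposited column headers mark the untreated arrays with the same letter w as the wounded ones, but their pair is titled for both series. How the untreated plants were handled is not stated, so a difference in handling between them and the wounded plants cannot be told apart from wounding. No array held plants that were only handled or left for 30 min without damage. The labels give no time of day, so a difference in harvest time cannot be told apart from wounding either, also for clock and light genes. The genotype rests on 1 RNA interference line, and no combination of genotype and treatment was repeated. The other 6 arrays hold leaves 60 min after wounding and plants treated for 1 h or 4 h with methyl jasmonate (MeJA) at 100 µM, in both genotypes. They entered the fit, and 4 of them serve below for comparisons with 60 min and with 1 h of MeJA.

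Damaged leaf cells send out electrical and calcium signals and release wall fragments and peptides, which receptors and kinases read. Within minutes lipids of the chloroplast are turned into jasmonic acid. Its isoleucine conjugate binds the receptor COI1, which leads to the loss of JAZ repressors and frees MYC factors to switch on defence genes. Ethylene, abscisic acid and salicylic acid signals meet this pathway. The deposited description of each probe set names the protein or the family to which it was thought to belong, and these wordings were used to sort probe sets into 85 families.

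Levels are given as signals on the linear scale of the arrays, for Col-0 first and Ri17 second. Differences are on the log2 scale, at 30 min minus untreated, as the mean of both genotypes with its standard error from limma. A floor of 37.7 was applied to all signals, below which 75% of the Absent ones lay. Where an array on the low side lay under the floor, the difference is a lower bound, written "at least" and without an error. A probe set was called higher or lower when its Benjamini-Hochberg adjusted p was under 0.05 (two-sided) over the 15382 probe sets called Present on at least 2 of the 10 arrays. The spread behind these p-values holds array noise together with any difference in response between the genotypes, and the labels do not say whether arrays came from separate plants or pools. In whole leaves, fewer cells of a type and less RNA per cell cannot be told apart.

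At 30 min 1482 probe sets were higher, 9.63% of those tested, and 1616 were lower, 10.5%. All 3098 had the same sign in both genotypes, which the call itself favours, since its spread holds any difference in response between them. The median over all probe sets tested was -0.08. Large changes were more often increases, with 519 probe sets called higher and 301 called lower by at least 2 on the log2 scale, and 99 and 21 by at least 4. The median was 1.61 among those called higher and -1.26 among those called lower. These counts fell to 854 and 699 without the Col-0 array at 30 min and to 778 and 674 without the Ri17 array, and 990 were lower without the untreated Col-0 array. A call is said below to have held where it passed without each of the 10 arrays in turn, which was so for 637 of the probe sets called higher and 469 of those called lower. Genes given with values below for 30 min against untreated held their call unless the text says otherwise. Most were chosen by the size of their change on these arrays, so a gap between wounded and untreated arrays is no further support. A gene of a list is called measured where a tested probe set carried its name. Most other list genes had no named probe set here, and some, as *CCA1* and *HY5*, were read by probe sets without a gene name.

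Among the 73 families with at least 10 probe sets tested, the share called higher was largest for dehydrins and cold-regulated proteins (60.0%), lipoxygenases and allene oxide enzymes (54.5%), AP2 domain factors (42.2%), WRKY factors (36.8%) and phospholipases (31.2%). The share called lower was largest for CONSTANS-like and B-box zinc fingers (41.7%), GRAS factors (40.9%), nitrate and peptide transporters (33.3%), flavonoid enzymes (30.4%) and ABC transporters (29.2%). In some families both shares stood above those of all probe sets, as in MYB factors, with 22.2% higher and 23.8% lower, and in amylases and starch enzymes, with 30.4% and 26.1%. The families are described by counts and medians and carry no test of their own.

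**Figure D1:**
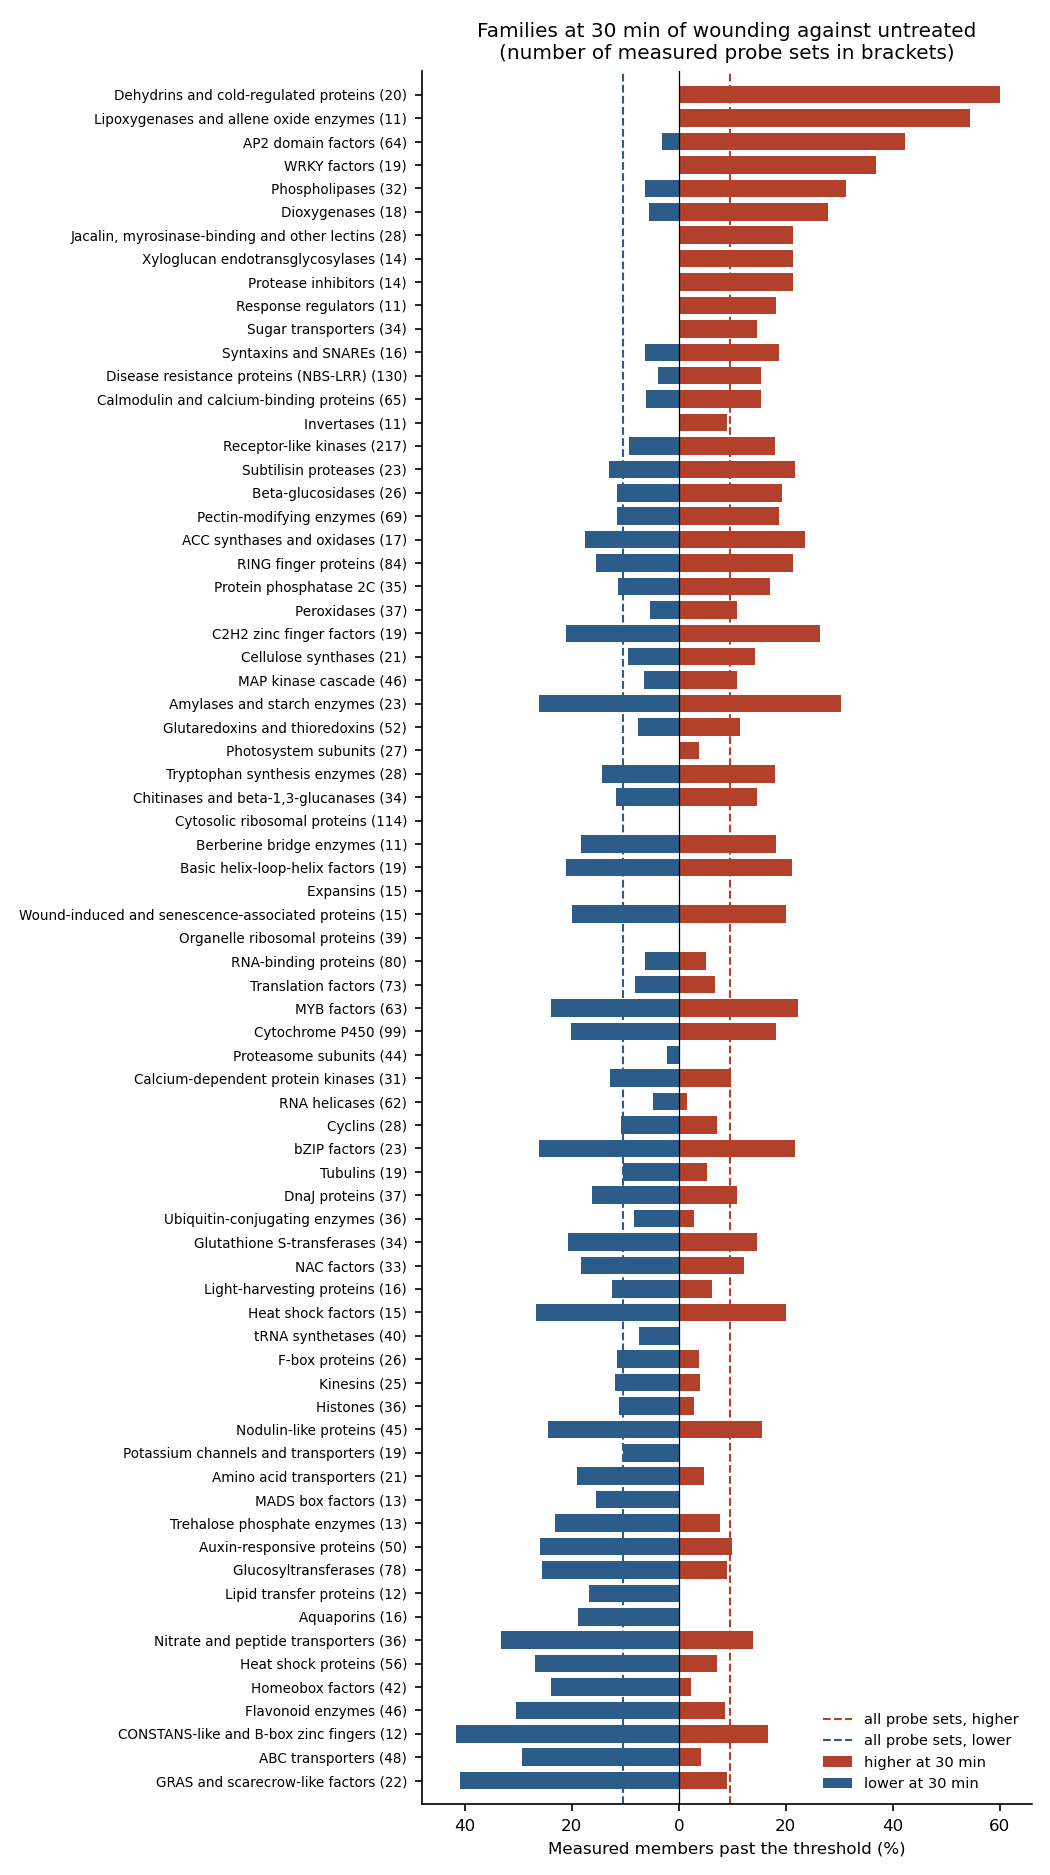
Share of probe sets called higher (to the right) and lower (to the left) at 30 min of wounding in each family with at least 10 probe sets tested, in percent. The dashed lines mark the 9.63% and 10.5% of all 15382 probe sets. Dehydrins and cold-regulated proteins reach 60.0% on the right, and CONSTANS-like and B-box zinc fingers reach 41.7% on the left.

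The leading genes were those of a calcium sensor, a wall enzyme and a transcription factor, together with genes whose description gave no function. *CML38*, which encodes a calmodulin-like calcium sensor, read 38.8 and 44.4 in untreated leaves and 4397.3 and 7360.5 at 30 min, a rise of 7.10 ± 0.19 (adjusted p = 1.25e-05). *TCH4*, the gene of a xyloglucan endotransglycosylase known to respond to touch, read 246.8 and 96.5 and then 10798.8 and 7248.0, a rise of 5.84 ± 0.34 (adjusted p = 9.94e-05). *ORA47*, an AP2 factor gene that acts on jasmonate synthesis, read 84.8 and 115.7 and then 5796.1 and 5175.4, a rise of 5.79 ± 0.22 (adjusted p = 3.91e-05). In each of these genes both wounded arrays lay far above both untreated arrays. AT1G05575, with no described function, went from 54.9 and 51.2 to 4436.2 and 5076.0 (6.48 ± 0.33, adjusted p = 6.4e-05). AT4G27654, equally undescribed, went from 64.8 and 43.8 to 5392.5 and 5895.8 (6.73 ± 0.43, adjusted p = 0.000122). AT5G52050, described as an integral membrane protein, went from 97.0 and 95.5 to 5195.2 and 6860.2 (5.96 ± 0.36, adjusted p = 0.000106). The genotypes lay within a narrow range of each other at 30 min in these genes. AT2G22880 rose by at least 7.08, with the untreated Ri17 array under the floor, and AT1G56300, described as a DnaJ protein, by at least 5.55, with both untreated arrays under it.

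The steepest falls among named genes began from high signals. AT2G27420, a cysteine proteinase gene, read 2355.7 and 5498.7 untreated and 57.9 and 51.3 at 30 min (-6.05 ± 0.47, adjusted p = 0.000294). AT5G15950, which encodes an S-adenosylmethionine decarboxylase of polyamine synthesis, read 14836.3 and 13045.5 and then 781.8 and 510.3 (-4.46 ± 0.25, adjusted p = 9.08e-05). *IAGLU*, the gene of an indole-3-acetate glucosyltransferase, read 1889.8 and 2589.9 and then 94.1 and 168.7 (-4.13 ± 0.24, adjusted p = 9.82e-05). In each of them the wounded arrays lay below the untreated ones without overlap. AT5G54130 and AT5G42760, whose descriptions gave no function, stood at -4.88 ± 0.29 and -4.80 ± 0.20.

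**Figure D2:**
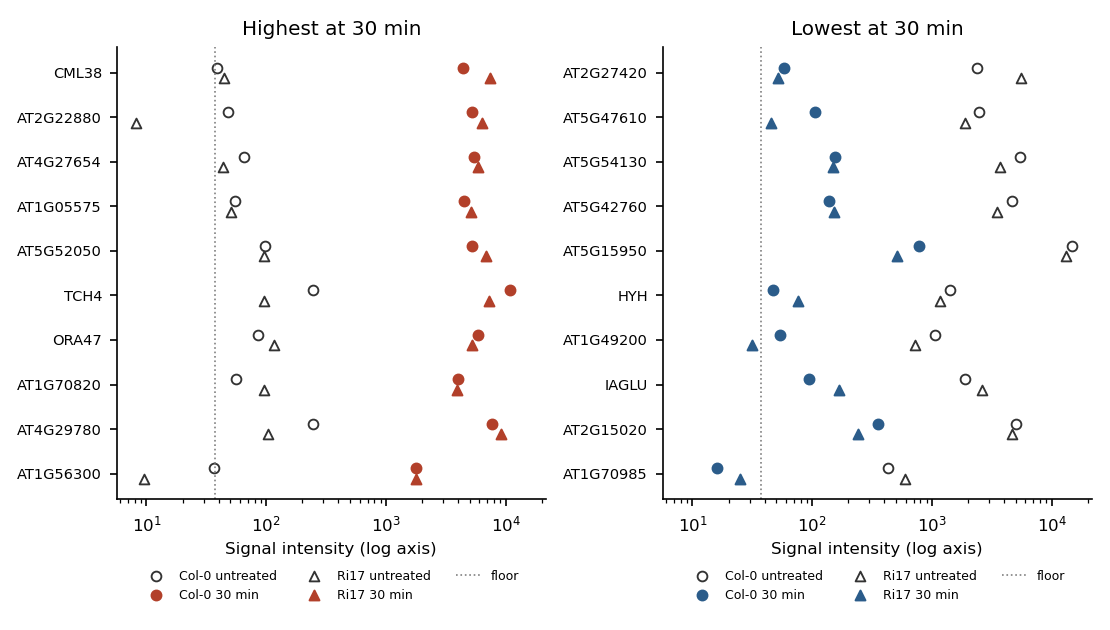
Signal (log axis) of the 10 genes with the largest increase and the 10 with the largest decrease among named genes called at 30 min of wounding, with 1 point for each of the 4 arrays and a line at the floor of 37.7. In every gene plotted the 2 wounded arrays lie on one side of the 2 untreated arrays, for example at 4397.3 and 7360.5 against 38.8 and 44.4 for *CML38*. The genes were chosen by this difference on the same 4 arrays, so the separation follows largely from the choice.

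Calcium and lipid signalling genes held several of the larger increases. Of 65 calmodulin and calcium-binding probe sets 10 were higher (15.4%) and 4 lower (6.15%), beside 9.63% and 10.5% of all probe sets, with a median of 0.00. Without either array at 30 min 5 were higher, 4 of the 10 calls held, and none of the 4 lower calls did. *CML37*, a further calmodulin-like gene, read 28.0 and 40.9 and then 608.1 and 865.8, a rise of at least 4.21 (adjusted p = 0.000402). A probe set described as calcineurin B-like 1, a calcium sensor that acts through kinases, read 281.3 and 258.6 and then 2490.9 and 3496.3 (3.45 ± 0.39, adjusted p = 0.00118). *ACA.l*, counted with calcium ATPases only by its description, went from 144.1 and 146.5 to 1274.7 and 1546.2 (3.27 ± 0.20, adjusted p = 0.000118). In all of them the wounded arrays lay above the untreated ones. AT3G01830, described without a function, went from 370.7 and 371.2 to 4382.5 and 8302.5 (4.02 ± 0.33, adjusted p = 0.000358). The glutamate receptor gene *GLR3.3*, whose channel carries the wound signal between leaves, measured 0.18 ± 0.20 (adjusted p = 0.584). Among 32 phospholipase probe sets 10 were higher and 2 lower. The number higher was 5 and 4 without the Col-0 and the Ri17 array at 30 min, and 3 of the 10 calls held. A phosphoinositide-specific phospholipase C, an enzyme that releases a messenger from membrane lipids, read 273.7 and 357.0 and then 2439.7 and 2165.0 (2.88 ± 0.24, adjusted p = 0.000369). AT2G39420, described as a phospholipase, read 589.2 and 949.9 and then 3520.6 and 6423.3 (2.67 ± 0.24, adjusted p = 0.000495). Neither lipase gene showed overlap between wounded and untreated arrays.

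Kinase and phosphatase families held calls in both directions, beside 9.63% higher and 10.5% lower among all probe sets. Of 217 receptor-like kinases, many of which sense peptides and wall fragments, 39 were higher (18.0%) and 20 lower (9.22%), with a median of 0.05. The number higher was 18 and 17 without the Col-0 and the Ri17 array at 30 min and 24 without the untreated Ri17 array, and the number lower was 8, 7 and 13. AT4G10390, described as like the receptor kinase CLV1, read 55.1 and 102.3 and then 578.7 and 1794.3 (3.76 ± 0.52, adjusted p = 0.00276). A probe set of wall-associated kinase 2, of a group that binds pectin, read 66.5 and 71.2 and then 535.5 and 1225.8 (3.56 ± 0.32, adjusted p = 0.000487). In both the Ri17 array at 30 min was the highest of the 4. Among 46 MAP kinase cascade probe sets 5 were higher (10.9%) and 3 lower (6.52%), of which 1 and 2 held. The number higher rose to 10 without the untreated Col-0 array and fell to 3 without the untreated Ri17 array, to 2 without the Col-0 array at 30 min and to 1 without the Ri17 array at 30 min. *MPK3*, a MAP kinase of rapid stress signalling, read 1610.6 and 1146.9 and then 3543.6 and 4973.8 (1.63 ± 0.30, adjusted p = 0.00983), a call lost without either array at 30 min (1.49, adjusted p = 0.084, without the Ri17 array). *MPK6*, which acts beside it, measured -0.17 (adjusted p = 0.676), and *MPK4* measured -0.41 (adjusted p = 0.222). Of the 8 measured genes of the MAP kinase list *MPK3* and *MEKK1* were higher, the latter by 1.19 ± 0.31 with a call lost without any of 7 single arrays. Calcium-dependent protein kinases numbered 31, with 3 higher (9.68%) and 4 lower (12.9%), of which 1 and 1 held. These shares were near those of all probe sets. Of 35 protein phosphatase 2C probe sets, which reverse kinase signals, 6 were higher (17.1%) and 4 lower (11.4%), of which 2 and 3 held. An unnamed phosphatase of this family went from 282.3 and 241.3 to 3075.6 and 4205.6 (3.78 ± 0.26, adjusted p = 0.000187). The probe set described as AtP2C-HA went from 2527.2 and 1880.9 to 301.6 and 378.3 (-2.69 ± 0.27, adjusted p = 0.000742). These opposite changes were each larger than the distance between the genotypes, which the call itself and the choice by size favour.

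Transcription factor genes with an AP2 domain, which include ethylene response factors and the cold regulators CBF and DREB, held the largest increase of all probe sets tested. Of 64 AP2 probe sets 27 were higher and 2 lower, with a median of 0.68. The higher calls numbered 25 and 23 without the Col-0 and the Ri17 array at 30 min, and 21 of the 27 calls held. A probe set described as a homolog of an ethylene-responsive element binding protein read 34.8 and 27.0 untreated and 9441.9 and 10525.5 at 30 min, a rise of at least 8.05 (adjusted p = 1.25e-05). *ERF2* went from 48.5 and 80.8 to 1706.9 and 2619.1 (5.08 ± 0.28, adjusted p = 8.09e-05). *DREB2A*, a factor of drought and heat responses, went from 73.9 and 57.2 to 780.7 and 924.6 (3.71 ± 0.36, adjusted p = 0.000623). Untreated signals of these genes were near the floor, and both wounded arrays were far above it. *ERF4*, a repressor of the family, began higher, at 825.1 and 700.0, and reached 5842.4 and 6258.4 (2.99 ± 0.23, adjusted p = 0.000285). *CBF2* rose by at least 4.19 and *CBF1* by at least 2.74, and the call for *CBF1* depended on the Col-0 array at 30 min (2.07 without it) and on each untreated array.

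WRKY and C2H2 zinc finger genes, regulators of defence and stress genes, added to this group. Of 19 WRKY factors 7 were higher and none was lower by limma (3 were lower at an unadjusted p under 0.05). Higher calls numbered 4 without either array at 30 min, and 4 calls held. The WRKY probe set with the largest rise read 450.4 and 255.4 and then 5176.5 and 5480.9 (3.97 ± 0.36, adjusted p = 0.000483). *WRKY53* read 920.8 and 545.0 and then 4141.3 and 4462.8 (adjusted p = 0.0246), but leaving out any of 7 single arrays ended its call. Of 19 C2H2 zinc finger factors 5 were higher and 4 lower, of which 4 and 1 held. *STZ*, the gene of the stress factor ZAT10, read 499.7 and 253.2 and then 8910.8 and 10467.6 (4.76 ± 0.34, adjusted p = 0.00022). *RHL41*, the gene of ZAT12, read 306.4 and 328.7 and then 2070.9 and 1899.4 (2.64 ± 0.34, adjusted p = 0.00194). Both genes had wounded signals well above the untreated ones. In the list of rapid stress factors, 10 of 26 genes had a named probe set that was tested. All 10 were higher, with a median of 3.15. NAC factors numbered 33, with 4 higher and 6 lower, of which 3 and 3 held, and a NAM-like member went from 259.3 and 250.8 to 2492.5 and 4431.8 (3.70 ± 0.33, adjusted p = 0.000459).

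MYB, bHLH and bZIP factors were split between steep rises and steep falls. Of 63 MYB factors 14 were higher and 15 lower, of which 5 and 8 held. The number higher was 8 and 6 without the Col-0 and the Ri17 array at 30 min, and 8 were lower without the Ri17 array. A MYB-related probe set went from 50.7 and 33.7 to 2309.7 and 4109.5, a rise of at least 6.14. Another fell by at least 4.36, from 881.3 and 683.7 to 25.4 and 10.2. The probe set described as CCA1, a factor of the morning loop of the circadian clock, read 5657.1 and 4972.8 and then 464.7 and 339.4 (-3.74 ± 0.23, adjusted p = 0.000108). These probe sets show no overlap between wounded and untreated arrays. Among 19 bHLH factors 4 were higher and 4 lower, of which 4 and 1 held, the latter being *MYC4*, given with jasmonate signalling below. Of 23 bZIP factors 5 were higher and 6 lower, of which 1 and 3 held. *BZIP60*, which acts in the unfolded protein response, read 2570.8 and 2029.0 and then 7152.4 and 8659.9 (1.79 ± 0.23, adjusted p = 0.00214). *HYH*, a relative of HY5 in light signalling, read 1399.7 and 1171.8 and then 47.3 and 76.7 (-4.41 ± 0.28, adjusted p = 0.00012). The probe set described as HY5 itself read 676.3 and 388.6 and then 52.7 and 63.6 (-3.15 ± 0.26, adjusted p = 0.000358). For both light factors the wounded arrays lay below the untreated ones.

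B-box, GRAS and homeobox families had more members lower than higher. Of 12 CONSTANS-like and B-box probe sets, factors of light and day-length responses, 2 were higher and 5 lower, of which 2 and 4 held. COL2 read 4920.0 and 5481.6 and then 249.4 and 144.1 (-4.78 ± 0.27, adjusted p = 9.2e-05), and CONSTANS-like 1 read 4603.7 and 4804.0 and then 208.6 and 196.3 (-4.54 ± 0.27, adjusted p = 9.94e-05). Against them AT2G47890, described with a B-box, rose by 3.04 ± 0.18. Of 22 GRAS factors, a family that includes the DELLA repressors of gibberellin signalling, 2 were higher and 9 lower (4 lower without the Ri17 array at 30 min), with a median of -0.59. The SCL13 probe set went the other way from most of its family, from 213.4 and 236.6 to 5977.8 and 7979.2 (4.94 ± 0.20, adjusted p = 4.01e-05). Scarecrow-like 3 read 554.4 and 668.2 and then 134.3 and 75.2 (-2.60 ± 0.31, adjusted p = 0.00156). Homeobox factors numbered 42, with 1 higher and 10 lower and a median of -0.53, and 4 and 5 were lower without the untreated Col-0 array and without the Ri17 array at 30 min. *AGL24*, a MADS box gene of flowering, read 208.3 and 193.2 and then 46.7 and 45.1 (-2.13 ± 0.23, adjusted p = 0.00104). All 4 wounded signals given here for COL2 and *AGL24* lay below their untreated ones.

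RING finger proteins, many of them ubiquitin ligases, changed in both directions, and the proteasome was little called. Of 84 RING probe sets 18 were higher and 13 lower, of which 5 and 7 held. Without either array at 30 min 6 were higher, and 11 were higher without the untreated Ri17 array. *RHA3B*, a RING-H2 gene, read 156.1 and 153.9 and then 2821.6 and 2983.6 (4.23 ± 0.18, adjusted p = 5.17e-05). AT1G49200, described as a relative of RHA3a, read 1066.2 and 724.6 and then 53.8 and 31.7, a signal that fell by 4.29 or more (adjusted p = 0.000448). The wounded and untreated arrays did not overlap in either gene. Of 44 proteasome subunits 1 was lower and none was higher by limma (1 higher and 2 lower at an unadjusted p under 0.05), with a median of -0.10.

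Enzymes of jasmonate synthesis rose. Of 11 lipoxygenase and allene oxide probe sets 6 were higher, of which 4 held, and none was lower by limma (none at an unadjusted p under 0.05), with a median of 1.33. An unnamed lipoxygenase, of the enzymes that open the pathway by oxidising linolenic acid, read 107.7 and 248.2 and then 8237.8 and 12092.2 (5.93 ± 0.40, adjusted p = 0.000163). A further one read 222.8 and 260.4 and then 11470.3 and 14914.3 (5.76 ± 0.26, adjusted p = 5.17e-05). *LOX2*, the chloroplast lipoxygenase that was already strong in untreated leaves, read 5727.3 and 8971.0 and then 15810.4 and 20595.4 (1.33 ± 0.27, adjusted p = 0.0143), a call lost without the untreated Col-0 array (0.98, adjusted p = 0.0716) or either array at 30 min. The lipoxygenases that began low thus had the larger differences. *AOS*, the allene oxide synthase, read 3299.5 and 4759.2 and then 12136.8 and 16559.4 (1.84 ± 0.24, adjusted p = 0.00223). *OPR3*, which reduces the precursor OPDA, read 1282.0 and 2499.9 and then 17999.8 and 23669.1 (3.53 ± 0.31, adjusted p = 0.000432). *OPCL1*, a ligase that prepares the product for shortening, read 650.1 and 762.9 and then 8961.4 and 11372.0 (3.84 ± 0.21, adjusted p = 8.09e-05). In these 3 genes Ri17 read above Col-0 in both conditions, and wounded arrays lay above untreated ones. Of the 18 genes in the list of jasmonate synthesis 5 had a named probe set that was tested, and all 5 were higher. Among them *AIM1* of the shortening steps rose by 0.93 ± 0.19 (adjusted p = 0.016), a call lost without the untreated Ri17 array (0.71) or either array at 30 min.

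Genes downstream of the hormone were partly lower. *MYC4*, a factor that switches on jasmonate responses, read 2672.6 and 1595.0 and then 168.5 and 229.5 (-3.39 ± 0.30, adjusted p = 0.000468). *COI1*, the receptor gene, read 1077.2 and 749.2 and then 404.3 and 334.3 (-1.29 ± 0.21, adjusted p = 0.00572), a call lost without the Ri17 array at 30 min (-1.21, adjusted p = 0.0539). *JMT*, whose enzyme methylates jasmonic acid, read 700.7 and 1080.7 and then 150.7 and 198.9 (-2.33 ± 0.32, adjusted p = 0.00271). Each of these genes was lower on both wounded arrays than on both untreated ones. *MYC3* measured -0.22 (adjusted p = 0.725). *JAV1* and the *JAZ* repressors were not analysed here.

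Genes for other hormones moved in both directions. The ACC synthase described as AtACS-6, which makes the ethylene precursor, read 395.6 and 303.5 and then 3102.7 and 2721.1 (3.07 ± 0.23, adjusted p = 0.000273). Of 17 ACC synthase and oxidase probe sets 4 were higher and 3 lower, of which 3 and none held. A putative 9-cis-epoxycarotenoid dioxygenase, of the enzyme group that commits carotenoids to abscisic acid, read 217.9 and 155.3 and then 1722.6 and 2223.9 (3.41 ± 0.28, adjusted p = 0.000358). *ABI2*, a phosphatase that restrains abscisic acid signalling, read 382.5 and 454.9 and then 73.5 and 133.3 (-2.08 ± 0.22, adjusted p = 0.000973). *ABF3*, a factor of the same pathway, read 798.9 and 525.1 and then 117.3 and 82.9 (-2.72 ± 0.29, adjusted p = 0.000949). The wounded and untreated arrays did not overlap in any of these genes, and the related *ABI1* measured -0.28 (adjusted p = 0.443). Of 50 auxin-responsive probe sets 5 were higher and 13 lower (26.0%), with a median of -0.62, the lowest among families with at least 10 probe sets tested. The number lower was 5 and 4 without the Col-0 and the Ri17 array at 30 min and 7 without either array at 4 h of MeJA. None of the 6 measured genes in the auxin list was called by limma, and *IAA7*, a repressor of auxin response, measured -0.56 ± 0.23 (adjusted p = 0.131). *GAI*, a DELLA repressor of gibberellin signalling, and *DWF4*, of brassinosteroid synthesis, were called at -0.77 and 0.80. Neither call held. That of *GAI* (adjusted p = 0.0433) was lost without any single array, and that of *DWF4* (adjusted p = 0.0352) without any of 9.

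**Figure D3:**
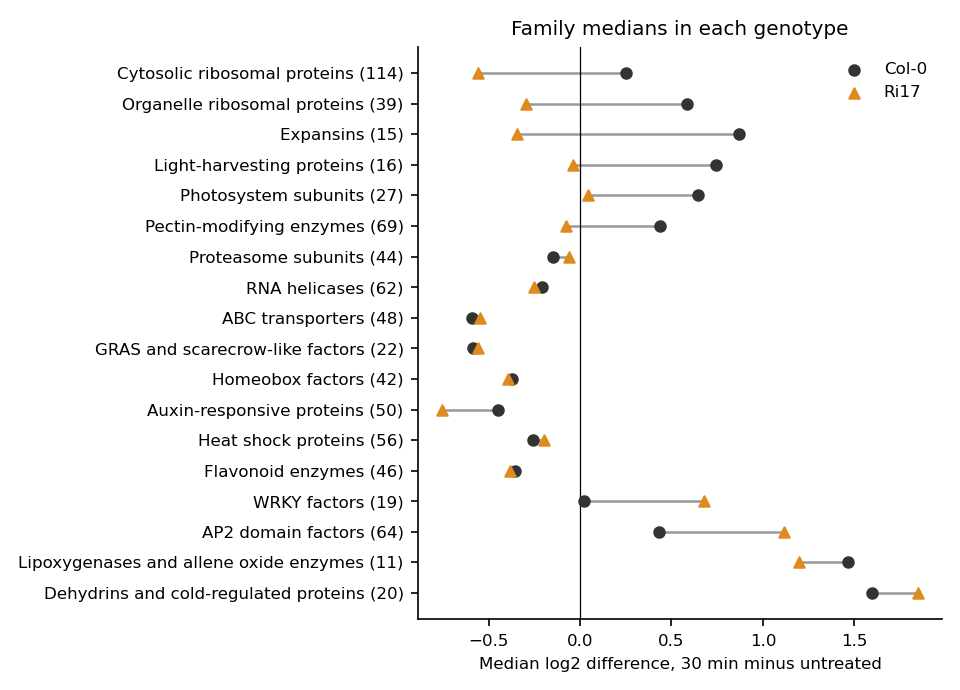
Median log2 difference, 30 min of wounding minus untreated, in Col-0 and in Ri17 for 18 families chosen after their values were seen, with a line joining the 2 genotypes. Dehydrins and cold-regulated proteins lie at 1.60 and 1.85, GRAS factors at -0.59 and -0.56, and cytosolic ribosomal proteins on opposite sides of 0 at 0.25 and -0.56.

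Cold-regulated proteins and several defence families had more higher than lower calls. Of 20 dehydrin and cold-regulated probe sets, proteins that guard cells against water loss and frost, 12 were higher and none lower by limma (none at an unadjusted p under 0.05), with a median of 1.63. Without the Ri17 array at 30 min 8 were higher, and 6 of the 12 calls held. AT4G30660, described as responsive to low temperature and salt, read 169.3 and 243.8 and then 3468.6 and 3390.8 (4.08 ± 0.22, adjusted p = 7.28e-05). *COR15A*, whose product protects chloroplast membranes, read 182.0 and 775.1 and then 1991.2 and 3284.5 (2.77 ± 0.45, adjusted p = 0.0056), a call lost without either array at 30 min (2.72, adjusted p = 0.0531, without the Col-0 array). Both genes lay higher on the wounded arrays than on either untreated array. Of 130 disease resistance (NBS-LRR) probe sets, receptors of pathogen effectors, 20 were higher (15.4%) and 5 lower (3.85%), with a median of -0.01, and 12 of the 20 and 1 of the 5 calls held. AT2G34930, counted here only by its description as a disease resistance protein, read 199.0 and 328.8 and then 5933.8 and 5982.6 (4.54 ± 0.31, adjusted p = 0.000168). A trypsin inhibitor gene, AT2G43550, of a kind that blocks insect digestion, read 300.8 and 527.5 and then 3851.9 and 4209.2 (3.34 ± 0.33, adjusted p = 0.000654). AT3G55430, a beta-1,3-glucanase, read 803.4 and 731.6 and then 6732.3 and 7575.5 (3.22 ± 0.19, adjusted p = 9.94e-05). In these 3 genes the wounded arrays of both genotypes lay far above the untreated ones. Protease inhibitors numbered 14 with 3 higher, of which 2 held. Among 28 lectins and myrosinase-binding proteins 6 were higher, of which 1 held, a myrosinase-binding protein that went from 153.1 and 195.6 to 1628.5 and 1096.8 (2.95 ± 0.29). Not all defence families had this balance. Chitinases and beta-1,3-glucanases numbered 34, with 5 higher (14.7%) and 4 lower (11.8%), of which 4 and none held. Their median was -0.13, and the shares of all probe sets were 9.63% and 10.5%. Wound-induced and senescence-associated proteins had 3 higher and 3 lower of 15, and MLO and harpin-induced proteins 2 and 2 of 8. Of 12 lipid transfer proteins, which bind lipids outside the cell, 2 were lower, of which 1 held, and none was higher by limma (none at an unadjusted p under 0.05), although 1 was higher without the untreated Ri17 array or either array at 60 min. None of 7 germin-like proteins was called by limma (none higher and 1 lower at an unadjusted p under 0.05), although 1 was higher without the untreated Ri17 array and 1 lower without the untreated Col-0 array or either array at 60 min. In the salicylate list *GRX480*, a glutaredoxin gene, read 136.2 and 357.4 and then 3022.9 and 5635.5 (4.23 ± 0.46, adjusted p = 0.00102), while *EDS1*, *SAG101* and *PR2* measured -0.15, 0.47 and 0.48 with adjusted p from 0.317 to 0.878.

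Families of secondary metabolism and detoxification were divided. Of 99 cytochrome P450 probe sets, oxygenases of many pathways, 18 were higher and 20 lower, of which 8 and 5 held. The number lower was 7 and 8 without the Col-0 and the Ri17 array at 30 min and 11 without the untreated Col-0 array. An unnamed P450 rose by at least 6.61, from 7.3 and 68.8 to 4271.6 and 5792.3. A probe set described as like CYP94A1, of a group that oxidises fatty acids, read 102.4 and 155.9 and then 6101.2 and 9591.0 (5.92 ± 0.27, adjusted p = 5.2e-05). Both lay far higher after wounding in each genotype. Of 78 glucosyltransferases 7 were higher and 20 lower (25.6%), of which 3 and 12 held. The number lower was 13 without either array at 30 min, and the number higher was 3 without the untreated Ri17 array. Besides *IAGLU*, *UGT72B3* read 979.8 and 545.5 and then 77.0 and 60.1 (-3.43 ± 0.31, adjusted p = 0.000468). Of 46 flavonoid enzymes 4 were higher and 14 lower, of which 3 and 7 held, and the number lower was 7 without the Ri17 array at 30 min. Flavanone 3-hydroxylase read 2883.9 and 4763.1 and then 150.3 and 84.6 (-5.04 ± 0.40, adjusted p = 0.000321). *TT5*, the chalcone isomerase gene, read 983.0 and 1056.7 and then 184.8 and 105.7 (-2.87 ± 0.29, adjusted p = 0.000745). *UGT78D2*, which adds glucose to flavonols and anthocyanins, read 2972.3 and 2567.9 and then 406.3 and 346.3 (-2.88 ± 0.16, adjusted p = 8.09e-05). These 3 genes were lower on both wounded arrays. *TT4*, the chalcone synthase gene at the head of the pathway, differed between the untreated arrays, at 1061.4 and 7279.2, and read 509.0 and 205.2 at 30 min (-3.10 ± 0.85, adjusted p = 0.0423), a call lost without any of 9 single arrays (-1.40, adjusted p = 0.0584, without the untreated Ri17 array). AT5G05600, counted in this family since it is described as like leucoanthocyanidin dioxygenase, went the other way, from 327.2 and 327.7 to 4065.3 and 5203.5 (3.81 ± 0.20, adjusted p = 6.97e-05).

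Redox families held calls in both directions. Among 52 glutaredoxins and thioredoxins 6 were higher (11.5%) and 4 lower (7.69%), of which 2 and 3 held. These shares were near the 9.63% and 10.5% of all probe sets. A thioredoxin-like probe set read 42.7 and 48.0 and then 862.7 and 620.6 (4.01 ± 0.23, adjusted p = 9.82e-05), and a putative thioredoxin read 6104.1 and 5848.8 and then 741.7 and 521.1 (-3.27 ± 0.24, adjusted p = 0.000221). Of 34 glutathione S-transferases, which couple glutathione to toxic compounds, 5 were higher and 7 lower, of which 1 and 2 held. Their shares were 14.7% and 20.6%. Without either array at 30 min 3 were lower. *BCB*, a blue copper protein gene, read 1155.0 and 696.3 and then 10081.8 and 10759.2 (3.54 ± 0.31, adjusted p = 0.000426), and its wounded arrays lay above both untreated ones.

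Wall genes held some large increases. Of 14 xyloglucan endotransglycosylases, which cut and rejoin the tethers between cellulose fibres, 3 were higher, of which 2 held, with a median of 0.55. *XTH18* rose by at least 4.23, from 5.2 and 49.8 to 801.6 and 828.7. *EXLA1*, an expansin-like gene, read 234.6 and 129.9 and then 4933.2 and 3550.9 (4.58 ± 0.20, adjusted p = 5.17e-05). Among the 15 probe sets described as expansins, proteins that loosen walls, none was called by limma (2 higher and 1 lower at an unadjusted p under 0.05), but 5 were higher without the untreated Ri17 array, 2 were lower without the untreated Col-0 array and 1 was higher without either array at 60 min. The list of xyloglucan and expansin genes had 9 measured members, with *TCH4*, *XTH18* and *EXLA1* higher and *EXPA8* at 1.13 (adjusted p = 0.054). Pectin-modifying enzymes numbered 69, with 13 higher and 8 lower, of which 2 and 2 held. The number higher was 5 without the untreated Col-0 array or the Col-0 array at 30 min and 2 without the Ri17 array at 30 min. A polygalacturonase inhibiting protein, which guards pectin against pathogen enzymes, read 728.4 and 612.9 and then 6687.3 and 5880.0 (3.23 ± 0.29, adjusted p = 0.000462). *PMEPCRF*, a pectinesterase gene, read 6274.8 and 3898.2 and then 1149.9 and 1204.3 (-2.07 ± 0.22, adjusted p = 0.000859). An arabinogalactan protein, of the cell surface, read 749.6 and 749.4 and then 9381.5 and 11940.0 (3.82 ± 0.30, adjusted p = 0.00029). The signals of these 3 probe sets did not overlap between wounded and untreated arrays. *TUB5*, a beta tubulin gene, rose by 2.11 ± 0.26, and *BGLU44*, a beta-glucosidase gene, by 3.25 ± 0.20.

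Transporter families were lower more often than higher, apart from sugar transporters. Of 48 ABC transporters, pumps for many compounds, 2 were higher and 14 lower, of which none and 4 held, with a median of -0.52. The number lower was 6 and 7 without the Col-0 and the Ri17 array at 30 min and 7 without the untreated Col-0 array. The largest fall among them was from 1917.6 and 1513.7 to 195.5 and 200.7 (-3.11 ± 0.29, adjusted p = 0.000531). Of 36 nitrate and peptide transporters 5 were higher and 12 lower, of which 2 and 5 held, and 7 and 6 were lower without the Col-0 and the Ri17 array at 30 min. AT1G64500, counted here only by its description as a peptide transporter, read 6411.9 and 5410.4 and then 583.3 and 443.2 (-3.53 ± 0.20, adjusted p = 9.82e-05). AT1G22570, with the same description, read 113.5 and 98.9 and then 2681.9 and 3035.7 (4.75 ± 0.17, adjusted p = 3.72e-05). *GTR1*, a glucosinolate transporter gene of this family, read 2613.3 and 2642.4 and then 9951.6 and 13759.0 (2.15 ± 0.26, adjusted p = 0.00148). Genes counted in this family by description thus moved in opposite directions without overlap of their groups. Of 34 sugar transporters 5 were higher, of which 4 held, and none was lower by limma (2 at an unadjusted p under 0.05), with a median of -0.06. The highest of them read 56.3 and 82.8 and then 1735.6 and 1753.1 (4.67 ± 0.31, adjusted p = 0.000147). *SWEET16*, a sugar carrier gene of the vacuole counted with nodulin-like proteins, read 48.8 and 52.7 and then 422.8 and 519.0 (3.21 ± 0.27, adjusted p = 0.000374). Aquaporins numbered 16, with 3 lower, of which none held, and none higher by limma (none at an unadjusted p under 0.05).

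Starch enzymes changed steeply and in both directions. Of 23 amylase and starch probe sets 7 were higher and 6 lower, of which 3 and 6 held, and the number higher was 3 without the untreated Col-0 array or the Ri17 array at 30 min and 4 without the Col-0 array at 30 min. An alpha-amylase, which breaks starch, read 71.5 and 95.6 and then 2232.8 and 2287.2 (4.77 ± 0.19, adjusted p = 4e-05). A beta-amylase-like probe set read 6948.5 and 5909.0 and then 108.9 and 99.2 (-5.95 ± 0.17, adjusted p = 1.55e-05), and a starch synthase read 13698.8 and 16439.8 and then 865.7 and 1901.9 (-3.55 ± 0.38, adjusted p = 0.000931). All 4 arrays kept the groups apart in each of these enzymes. A cytosolic starch phosphorylase rose by 3.28 ± 0.32. Among 11 invertases, which split sucrose, a neutral invertase was the single call, from 218.0 and 167.1 to 4413.9 and 5910.1 (4.74 ± 0.22, adjusted p = 5.5e-05).

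Chloroplast and light genes changed at the level of single regulators. *PORB*, whose enzyme makes chlorophyllide in light, read 448.0 and 940.8 and then 10703.6 and 9268.2 (3.94 ± 0.34, adjusted p = 0.000402). *PHOT1*, a blue light receptor gene, read 1460.1 and 1324.1 and then 3995.8 and 3660.6 (1.46 ± 0.23, adjusted p = 0.0054). *COP1*, a ligase that removes light factors in darkness, read 978.8 and 842.0 and then 360.1 and 434.2 (-1.20 ± 0.19, adjusted p = 0.00463). Each gene was clearly apart between wounded and untreated arrays. *GI*, an evening gene of the clock, measured 1.74 ± 0.29 (adjusted p = 0.00626), and its call did not pass when the Col-0 array at 30 min was left out (1.42, adjusted p = 0.0568). Of 27 photosystem subunits 1 was higher and none lower by limma (5 higher and none lower at an unadjusted p under 0.05), while 5 were higher without the untreated Ri17 array, none was higher by limma without the Col-0 array at 30 min (1 at an unadjusted p under 0.05), and 2 were lower without the untreated Col-0 array. The median was 0.64 in Col-0 and 0.04 in Ri17. Light-harvesting proteins numbered 16, with 1 higher and 2 lower, none of which held, and medians of 0.74 and -0.04.

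Ribosomal protein genes were not called at 30 min, and translation factors had shares below those of all probe sets. Heat shock genes were mostly lower where called. None of 114 cytosolic ribosomal proteins was called by limma (none higher and 2 lower at an unadjusted p under 0.05), and none of 39 organelle ribosomal proteins (none higher and 3 lower), of which 12 were higher without the untreated Ri17 array. Of 73 translation factors 5 were higher (6.85%) and 6 lower (8.22%), none of which held, beside 9.63% and 10.5% of all probe sets. Of 56 heat shock proteins, chaperones that protect other proteins, 4 were higher and 15 lower (26.8%), of which 2 and 4 held. The number lower was 5 and 4 without the Col-0 and the Ri17 array at 30 min and 6 without the untreated Col-0 array. *HSP101*, a chaperone gene of heat tolerance, was low throughout, at 120.1 and 264.7 and then 13.5 and 13.9, a signal that fell by 2.24 or more (adjusted p = 0.0184), with a call lost without any of 4 single arrays. *UBQ10*, a gene used as a reference, measured -0.05 (adjusted p = 0.903), and none of the 3 measured reference genes was called.

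The remaining families had few calls or calls in both directions, beside 9.63% higher and 10.5% lower among all probe sets. Of 80 RNA-binding proteins 4 were higher and 5 lower, of which 3 and 2 held. Without the untreated Ri17 array 8 were higher, and without the untreated Col-0 array or the Col-0 array at 30 min 2 were lower. The probe set of glycine-rich RNA-binding protein 7, which acts in the clock and in defence, read 2196.9 and 2673.6 and then 7106.1 and 7641.7 (1.60 ± 0.17, adjusted p = 0.000782). Histones, which pack DNA, numbered 36 with 1 higher and 4 lower, of which none and 1 held, and a histone H2A read 2493.8 and 1860.3 and then 708.8 and 540.3 (-1.80 ± 0.24, adjusted p = 0.00262). Both probe sets kept wounded and untreated arrays apart. Of 45 nodulin-like proteins, many of them membrane carriers, 7 were higher and 11 lower, of which 3 and 5 held. The number lower was 5 without the Ri17 array at 30 min. Potassium channels and transporters numbered 19, with 2 lower and both held, and *KT2/3* read 1425.1 and 1522.7 and then 535.0 and 545.9 (-1.45 ± 0.20, adjusted p = 0.0028). Among 37 DnaJ proteins, partners of heat shock chaperones, 4 were higher (10.8%) and 6 lower (16.2%), of which 1 and 2 held. Of 28 cyclins 2 were higher and 3 lower, of 25 kinesins 1 and 3, of 26 F-box proteins 1 and 3, of 36 ubiquitin-conjugating enzymes 1 and 3, and of 62 RNA helicases 1 and 3. Of these, 1 cyclin and 1 kinesin called higher held, and no other call did. Without the untreated Ri17 array 3 kinesins and 3 RNA helicases were higher and 5 ubiquitin-conjugating enzymes lower, and without the untreated Col-0 array 2 F-box proteins were higher. Without the Ri17 array at 30 min none of the cyclins, kinesins and F-box proteins was lower by limma (2, 3 and 3 at an unadjusted p under 0.05). Of 37 peroxidases 4 were higher and 2 lower, of which none and 1 held. Subtilisin proteases numbered 23 with 5 higher and 3 lower, of which 2 and none held, and tryptophan synthesis enzymes 28 with 5 and 4, of which 1 and 1 held. Among 26 beta-glucosidases 5 were higher, of which 4 held, and 3 lower, of which none held.

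The labelled tissue was checked against marker genes. The mesophyll genes *LHCB3* and *GAPA* read between 18269.3 and 31661.0 on the 4 arrays, and 2 of 6 mesophyll markers were measured. The root gene *WER*, the seed gene *EM1* and the flower genes *AGL104* and *AP3* were called Present on none of the 10 arrays and read at most 64.8 on these 4. Of the epidermis, guard cell and xylem lists 3 of 6, 1 of 5 and 3 of 6 were measured, and none of those was called between wounded and untreated leaves, nor was any mesophyll gene. Of the epidermis list, *ATML1* read 569.7 and 478.1 and then 854.4 and 513.8, and *CER6* read 6899.8 and 5950.9 and then 5169.6 and 3164.2. Its remaining tested member, *FDH*, was matched by symbol to AT5G14780, a formate dehydrogenase gene and not an epidermis marker. No phloem marker had a named probe set. The ratio of 3′ to 5′ signal, a sign of RNA integrity, was 1.94 and 1.95 untreated and 2.67 and 2.41 at 30 min for the GAPDH control, and 1.99 and 1.73 against 2.54 and 2.06 for ubiquitin. For actin the ratio did not separate the groups, at 11.5 and 12.7 untreated, with the Col-0 array at 30 min below both and the Ri17 array above both at 13.2. The part of these ratios in the results was not tested. Median signal over the 10 arrays ran from 122.4 to 134.3.

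The response was then compared side by side in Col-0 and Ri17, each as the difference of 2 single arrays. By at least 1 on the log2 scale, 984 probe sets were higher in both genotypes and 893 lower in both. A further 730 were higher by that amount in Col-0 alone and 544 in Ri17 alone, 774 and 708 were lower, and 42 went opposite ways. Across the 15382 probe sets the differences had a Pearson correlation of 0.753 and a Spearman correlation of 0.565, given as a description. Among the probe sets called higher the median was 1.51 in Col-0 and 1.71 in Ri17, and among those called lower it was -1.28 and -1.22. Differences between the genotypes in the response carry no test, since each rests on 4 single arrays.

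**Figure D4:**
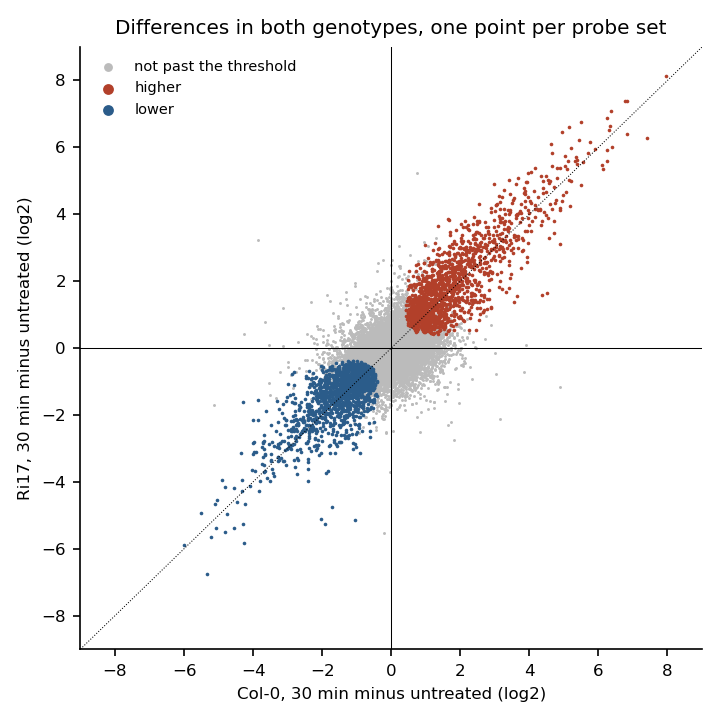
Log2 difference, 30 min of wounding minus untreated, in Col-0 (horizontal axis) against Ri17 (vertical axis), with 1 point per probe set tested and the 1482 called higher and 1616 called lower in colour. The called points lie in the upper right and lower left parts, where both genotypes have the same sign, which the call itself favours.

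Comparison with 60 min asked which of these changes were still under way. At 60 min 411 probe sets were higher than at 30 min (2.67%) and 265 lower (1.72%). The untreated arrays do not enter this difference, but the same arrays at 30 min enter both comparisons. Noise on them alone would move genes chosen at 30 min back toward untreated at 60 min. A return toward untreated was not tested apart from it. These counts rested on single arrays. Without the Ri17 array at 60 min none was called by limma (1087 higher and 1152 lower at an unadjusted p under 0.05), so that no call between 30 and 60 min given here held, whichever gene it concerns. Without the Col-0 array at 30 min 2 were higher and none was lower (1058 at an unadjusted p under 0.05), and 61 and 6 remained without the Ri17 array at 30 min. Without any single MeJA array the counts were 104 to 139 higher and 40 to 50 lower. Of the probe sets higher at 30 min 114 were higher still at 60 min and 66 were lower, and of those lower at 30 min 82 were higher and 86 lower at 60 min. *UGT76E12*, a glucosyltransferase gene, read 5.1 and 169.4 at 30 min and 2843.1 and 3009.1 at 60 min, a rise of at least 5.19 (adjusted p = 0.0093). AT2G38240, described as an anthocyanidin synthase, read 240.5 and 522.3 and then 4140.7 and 3878.9 (adjusted p = 0.0093). AT1G10585, with no described function, read 52.6 and 77.0 and then 795.5 and 1601.2 (4.15 ± 0.40, adjusted p = 0.0093). These genes were thus far higher at 60 min in both genotypes.

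Some early genes read closer to their untreated signals at 60 min than at 30 min. These calls share the arrays at 30 min with the choice of the genes, and again were lost without the Ri17 array at 60 min. *ORA47* read 1781.4 and 1700.8 at 60 min, down from 5796.1 and 5175.4 at 30 min (-1.65 ± 0.22, adjusted p = 0.0152), and AT1G05575 stood at -1.66 (adjusted p = 0.0415). *ABI2*, low at 30 min, read 345.4 and 616.6 at 60 min (2.22, adjusted p = 0.0093), and *JMT* read 478.1 and 596.4 (1.63, adjusted p = 0.0408). The signals of *ABI2* at 60 min lay on either side of its untreated signals of 382.5 and 454.9, while those of *JMT* were still below its untreated signals of 700.7 and 1080.7. AT2G15020, of unknown function, went further down, from 4986.4 and 4625.6 untreated to 351.2 and 238.9 at 30 min and to 74.1 and 43.7 at 60 min (-2.35 ± 0.30 against 30 min, adjusted p = 0.0143). *OPR3* and *OPCL1* measured 0.44 (adjusted p = 0.478) and -0.01 (adjusted p = 0.993) between 30 and 60 min. By family, 7 of 34 glutathione S-transferases and 6 of 35 phosphatases of type 2C were higher at 60 than at 30 min, against 1 and none lower. Of 130 NBS-LRR probe sets 5 were lower and none higher. Among all probe sets tested 2.67% were higher and 1.72% lower.

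Comparison with 1 h of MeJA set mechanical damage beside the hormone alone. In leaves wounded for 30 min 2051 probe sets read higher than after MeJA (13.3%), and 2573 read lower (16.7%). Without the Col-0 and the Ri17 array at 1 h of MeJA 994 and 973 were higher and 1103 and 790 lower, and without the Col-0 and the Ri17 array at 30 min 1160 and 1065 were higher and 1259 and 1090 lower. By the study's design MeJA was given to seedlings, whereas single leaves were wounded, so the part treated, handling and time cannot be told apart from the kind of treatment here. *ORA47* read 144.2 and 118.8 after MeJA, and was 5.39 ± 0.22 higher at 30 min of wounding (adjusted p = 0.000144). *OPR3* and *OPCL1* measured -0.16 (adjusted p = 0.729) and 0.27 (adjusted p = 0.385), so that these jasmonate synthesis genes showed no call between the treatments. AT3G01830 read 38.3 and 44.2 after MeJA and was 7.20 ± 0.33 higher at 30 min of wounding (adjusted p = 0.000147). *BGL2*, the PR2 glucanase gene of salicylate defence, read 7480.4 and 21624.8 at 30 min against 43.4 and 6.9 after MeJA, at least 8.30 higher (adjusted p = 0.00021). Untreated leaves already held 10559.8 and 7831.3 of it. *BSMT1*, a methyltransferase gene, read 2.8 and 45.6 at 30 min and 3926.7 and 4007.3 after MeJA, a difference of -6.58 or further below 0 (adjusted p = 0.000181). AT4G21870, described as like a heat shock protein, read 606.5 and 453.7 at 30 min and 18325.9 and 16195.1 after MeJA (-5.04 ± 0.21, adjusted p = 0.000144). By family, 57 of 130 NBS-LRR probe sets were higher in wounded leaves than after MeJA and 8 lower. Of 217 receptor-like kinases 59 were higher and 18 lower. The order was turned in heat shock proteins, with 7 higher and 26 lower of 56, and in translation factors, with 2 and 24 of 73. In cytosolic ribosomal proteins none of 114 was higher by limma, against 13.3% of all probe sets. In this family 18 were lower, a share near the 16.7% of all probe sets.

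**Figure D5:**
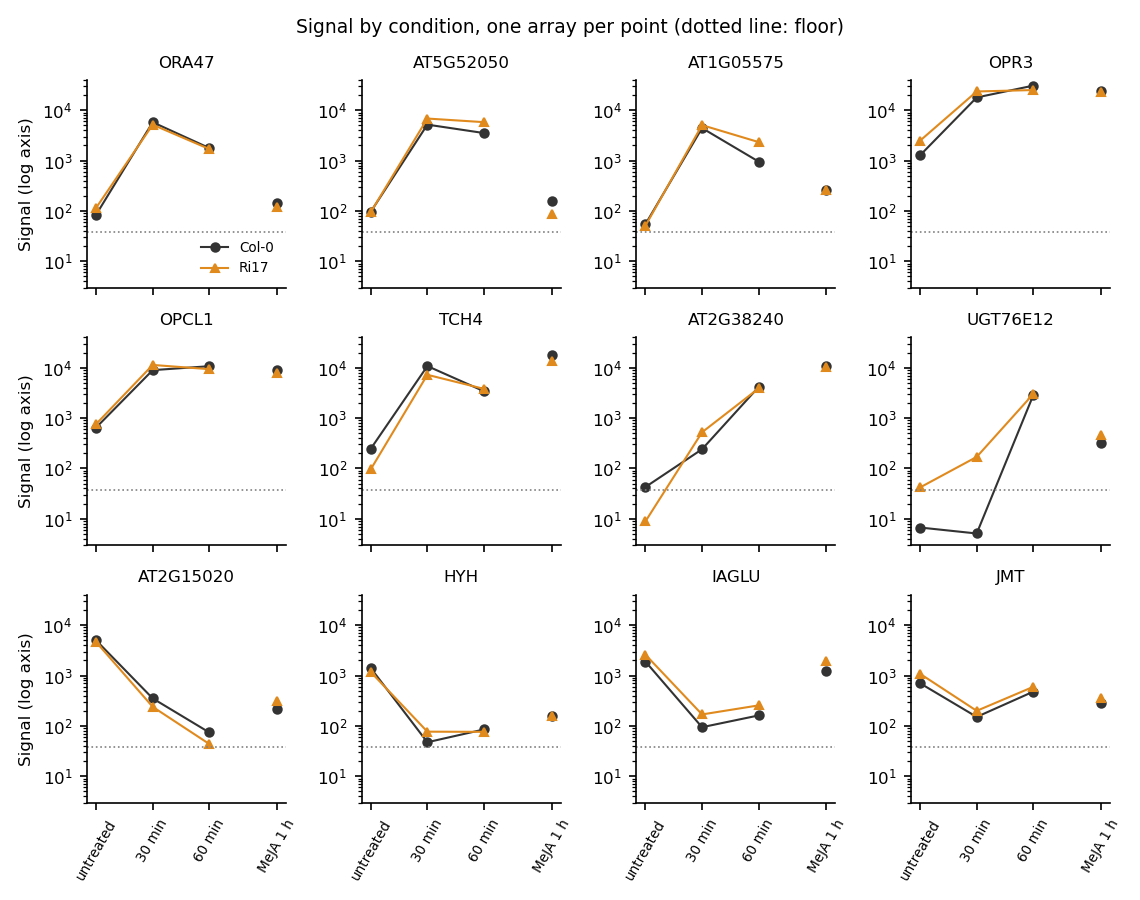
Signal (log axis) of 12 genes chosen after their values were seen, in untreated leaves, 30 and 60 min after wounding and after 1 h of MeJA, with 1 point per array for Col-0 and Ri17. *ORA47* peaks at 30 min (5796.1 and 5175.4) and stays at 144.2 and 118.8 after MeJA, while *UGT76E12* rises between 30 and 60 min.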

How the data were processed

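RNA was hybridised to Affymetrix ATH1 arrays, 1 for each of 5 conditions in each genotype. The deposited intensity values were made by the authors with GCOS, per the submitters' processing notes, whose version is not given in the sources used here. The Present, Marginal or Absent calls were deposited beside them. Signals of the series table and of the 5 deposited tables that pair both genotypes in 1 condition differed by 0.0 at most. No depth applies to arrays, and their number limits the precision.

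Signals were raised to a floor of 37.7 and put on the log2 scale. Control probe sets (64 of 22810) and those Present on fewer than 2 arrays were left out, which left 15382. All 10 arrays were fitted with limma 3.58.1 (R 4.3.3), lmFit and eBayes, with treatment and genotype as terms, so that genotype was the pair block, since the labels give each genotype in every condition. Adjusted p-values are Benjamini-Hochberg over all 15382. Tables were made with pandas 2.3.3 and NumPy 2.4.6 under Python 3.11.15, figures with Matplotlib 3.10.9, and the fit was tested on simulated data.

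The platform table named 13513 probe sets by 1 gene (13436 matched TAIR 10.1) and 503 by several. Of 8730 without a gene there, 432 were named from a locus or symbol in their description. Named genes were the 10 highest and 10 lowest, up to 3 per family and direction, up to 4 per list and 5 per direction of each other comparison. Unnamed probe sets are given by their deposited wording and were chosen after their values were seen. The families, lists and comparisons were chosen with earlier results of these data known. Alternatives tried were other floors, filters and normalisations, fits on fewer arrays, no genotype term and leaving out each array. *JAV1* and the *JAZ* genes were not analysed here, and no sequences were used here.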

Additional observations from a re-analysis of the deposited data

Results flagged for a closer look

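Among families with at least 10 probe sets tested, the median difference at 30 min went opposite ways in the 2 genotypes by at least 0.25 each way (log2) in 3, and among the genes of the lists the difference itself did so in 6. Smaller opposite differences and those of smaller families are not listed. None of these differences between genotypes was tested, since each rests on single arrays. Median differences were 0.87 in Col-0 and -0.34 in Ri17 for expansins, 0.25 and -0.56 for cytosolic ribosomal proteins, and 0.58 and -0.29 for organelle ribosomal proteins. Among factors and signalling genes, *MYC3* measured -1.02 in Col-0 and 0.58 in Ri17, and *MKK4*, a MAP kinase kinase gene, -0.68 and 0.26. In salicylate defence, *EDS1* measured -0.78 and 0.48, and *PR2* -0.50 and 1.47. *GASA4*, a gene responsive to gibberellin, measured 0.69 and -1.06, and *XCP2*, a xylem protease gene, 0.79 and -0.33.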

How the results depend on the processing

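The counts at 30 min stayed within 1.5 times of 1482 and 1616 under 8 of 10 other settings in each direction. With the 6 wounded and untreated arrays alone 800 were higher and 667 lower, and with the 4 arrays alone 300 and 162. Leaving out single arrays gave 778 to 1492 higher and 674 to 1651 lower. Counts at 60 against 30 min (411 and 265) fell to 0 and 0 by limma with the 6 arrays alone (1142 higher and 1333 lower at an unadjusted p under 0.05, smallest adjusted p 0.1311), to 93 and 68 without the detection filter, and to 254 higher with the floor at the 95th percentile of Absent signals (79.9). Leaving out single arrays gave 0 to 398 higher and 0 to 275 lower, with 0 lower without the Col-0 array at 30 min or the Ri17 array at 60 min. Counts against 1 h of MeJA stayed within 1.5 times of 2051 and 2573 under all 8 other settings, and leaving out single arrays gave 973 to 2250 and 790 to 2808. Without the genotype term as a replicate block the counts were 1477 and 1638 at 30 min, 404 and 279 at 60 against 30 min, and 2070 and 2621 against MeJA. For 313 genes at 30 min, leaving out single arrays gave 3130 values, of which 2570 kept their side of the threshold and direction, 547 lost the call, 13 gained it and 0 reversed. The other settings gave 3115 values, of which 2628 kept it, 481 lost it, 6 gained it and 0 reversed. Quantile normalisation left 158 of 166 family counts within 1.5 times. The fits on fewer arrays hold no MeJA arrays, and that on 4 arrays none of 60 min, so those comparisons were not run there. The cause of these shifts was not tested, except that fits on fewer arrays have fewer residual degrees of freedom. Signals under the floor have no order.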
